A study of Mus musculus with 11 samples.

Results

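Mononuclear phagocytes of the cauda, the distal region of the mouse epididymis, were compared with those of the caput/corpus, the regions upstream of it. The comparison uses 7 of the 11 RNA-seq libraries of the study, 4 from cauda and 3 from caput/corpus, chosen by the tissue region that the labels give. All came from heterozygous mice (CX3CR1 EGFP +/-) aged 12 weeks, in which EGFP is driven from the Cx3cr1 locus, and cells bearing EGFP were isolated by a double sort. Each library pooled 4 epididymides; no treatment is named, and the labels do not say which animals contributed to which library, so the tests measure the spread between libraries. The other 4 libraries, from the initial segments (IS), the most proximal region, are quoted for context. They were part of the same fit, and so also enter the scaling, the gene filter, the spread and the term for the title series (Maj3 or Maj4).

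The epididymis is a long coiled duct in which sperm mature as they pass from proximal to distal regions and are stored in the cauda. Its epithelium secretes region-specific proteins, among them lipocalins, cystatins, beta-defensins and glutathione peroxidases. Mononuclear phagocytes (macrophages, dendritic cells and monocytes) lie at the base of this epithelium and between the ducts, where they take up dying cells, sample antigen and present it to T cells. Cx3cr1, the receptor for the membrane-bound chemokine fractalkine, is carried by many of these cells and does not by itself tell their types apart.

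Total reads over genes ranged from 16873180 to 31737132 among the 11 libraries. Cauda replicate 1 stood apart: 13434 genes had a read in it against 17168 to 17789 in the other cauda libraries and 17053 to 18837 in caput/corpus. It was correlated at 0.82 to 0.875 with the other 6 libraries on a log scale across genes, which are not independent, and these 6 were correlated with each other at 0.906 or more. For 3 of the 11 samples, among them cauda replicate 1 and caput/corpus replicate 1, the deposited count file and the column of the deposited RPKM table that carries the sample's name hold different reads. The reads used here as caput/corpus replicate 1 are deposited as a count file under cauda replicate 1, and the count file under caput/corpus replicate 1 holds the reads of the IS replicate 2 column. The columns were used here, and the reads of cauda replicate 1 are held by its column only. The main results are therefore given with and without this library.

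Cx3cr1 (ENSMUSG00000052336), the gene behind the sort, stood at 551, 328 and 378 CPM in caput/corpus and at 340, 272, 371 and 266 CPM in cauda. CPM are reads per 1000000 reads of the effective library size. The groups overlapped, and the log2 fold change, here and below cauda minus caput/corpus, was -0.43 ± 0.20 (SE; adjusted p = 0.438). Csf1r, which macrophages need to survive, was measured at 2790, 1969 and 1914 CPM in caput/corpus and at 949, 1435, 1929 and 1667 CPM in cauda. The sorted cells of both regions thus carried the defining transcripts of the lineage, and Csf1r was not called either (adjusted p = 0.334).

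In cauda, 5 genes were higher and 88 lower than in caput/corpus, of 15116 tested with edgeR's quasi-likelihood test at a Benjamini-Hochberg adjusted p under 0.05. That is 0.615% of the genes tested, 0.0331% called higher and 0.582% called lower. Without adjustment, 1772 genes had a p under 0.05. The 5 higher genes all differed by less than 2-fold, while 80 of the 88 lower genes differed by 2-fold or more. Of the 93 genes, 88 had groups that did not overlap. Over all genes tested, the cauda libraries lay wholly below the caput/corpus libraries in 6.59% and wholly above them in 3.05%. The 88 lower genes fall into a set of 60 with a mean under 1 CPM in cauda and 28 at or above it, of which 19 reached 10 CPM. Those 19 differed by a log2 fold change between -1.75 and -0.64.

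**Figure D1:**
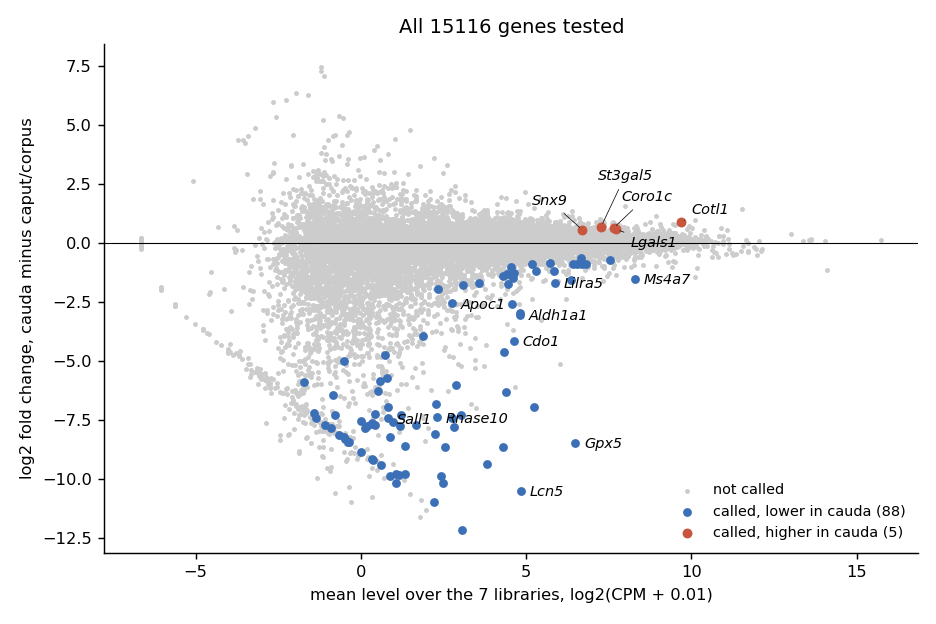
Log2 fold change (cauda minus caput/corpus) against the mean level over the 7 libraries, as log2(CPM + 0.01), for each of the 15116 genes tested; colours mark the called genes. The 5 genes higher in cauda lie at high levels and small changes, and most of the 88 lower genes lie at low levels with log2 fold changes beyond -4.

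The number of calls depended on single libraries. Without cauda replicate 1, 205 of 14996 genes were called (1.37%), 23 higher in cauda (0.153%) and 182 lower (1.21%), and all 93 genes were among them. Leaving out another library gave 29 calls (without caput/corpus replicate 1, the library filed under a cauda name) to 96 (without cauda replicate 3), with 49 without cauda replicate 4 and 58 without caput/corpus replicate 3. With the 7 libraries alone 8 genes were called, and with the counts as filed, in which caput/corpus replicate 1 and cauda replicate 1 hold other reads, 0 were called by edgeR (992 at an unadjusted p under 0.05, and only edgeR was run there).

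The promoters of 5 genes whose values follow are shown, because these genes stand for the 3 kinds of change found: Coro1c and St3gal5, higher in cauda phagocytes; Lilra5, a myeloid receptor lower in cauda; and Gpx5 and Lcn5, epididymal secretory genes nearly absent from cauda. Each is the 250 bases before the RefSeq gene start, written 5′ to 3′ on the gene's strand (GRCm38.p6), with motif matches in capitals. They lie at chr5:113908707-113908956 (Coro1c, minus strand), chr6:72097358-72097607 (St3gal5, plus), chr7:4237504-4237753 (Lilra5, plus), chr13:21292687-21292936 (Gpx5, minus) and chr2:25657702-25657951 (Lcn5, plus).
Coro1c: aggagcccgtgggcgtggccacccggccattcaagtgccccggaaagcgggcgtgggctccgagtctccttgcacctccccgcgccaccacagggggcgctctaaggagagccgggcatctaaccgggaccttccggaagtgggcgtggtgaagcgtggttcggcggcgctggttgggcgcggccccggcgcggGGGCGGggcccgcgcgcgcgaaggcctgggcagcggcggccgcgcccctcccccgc
St3gal5: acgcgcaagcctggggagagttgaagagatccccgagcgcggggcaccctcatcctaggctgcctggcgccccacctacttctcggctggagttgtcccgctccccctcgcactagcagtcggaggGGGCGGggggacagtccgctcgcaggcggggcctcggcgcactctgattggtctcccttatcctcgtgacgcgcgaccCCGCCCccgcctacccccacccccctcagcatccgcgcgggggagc
Lilra5: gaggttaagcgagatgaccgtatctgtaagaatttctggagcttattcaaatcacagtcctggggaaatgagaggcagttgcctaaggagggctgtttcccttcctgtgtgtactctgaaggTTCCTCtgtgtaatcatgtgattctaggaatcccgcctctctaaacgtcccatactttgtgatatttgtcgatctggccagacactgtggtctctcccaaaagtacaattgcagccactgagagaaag
Gpx5: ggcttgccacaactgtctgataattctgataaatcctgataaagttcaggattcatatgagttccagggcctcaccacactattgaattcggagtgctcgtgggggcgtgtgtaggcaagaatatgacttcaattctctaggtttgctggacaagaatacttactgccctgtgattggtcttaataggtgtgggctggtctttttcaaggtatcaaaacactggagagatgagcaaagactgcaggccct
Lcn5: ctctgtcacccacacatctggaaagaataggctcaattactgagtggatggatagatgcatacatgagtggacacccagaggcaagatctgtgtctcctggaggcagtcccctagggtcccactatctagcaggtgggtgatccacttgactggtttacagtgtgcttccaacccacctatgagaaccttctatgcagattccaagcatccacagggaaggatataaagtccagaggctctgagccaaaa
In all, 4 motifs were searched on both strands, a match on the other strand being printed as its reverse complement, and no match overlapped another. The GC box GGGCGG matched once in Coro1c and at 2 places in St3gal5, and is held by 32.7% of all 32851 promoter windows of this length. The core GAGGAA bound by the myeloid factor PU.1 matched once in Lilra5 and is held by 23.3% of windows. The androgen receptor motif AGAACA, held by 16.1% of windows, and the AP-1 site TGANTCA, held by 6.7%, matched in none of the 5. G and C made up 76.8% of the Coro1c window and 71.6% of that of St3gal5, against 46.4% in Lilra5, 45.2% in Gpx5 and 49.6% in Lcn5, and the median over all windows was 52.4%. A stretch just after each window was looked for near the starts of the gene's GENCODE M21 transcripts. It was found in 2 transcripts of Coro1c, 2 of St3gal5, 1 of Gpx5, 3 of Lcn5 and 0 of Lilra5. The start used for Lilra5 thus rests on RefSeq alone. A match is a run of letters and not a measured binding site.

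The 5 genes higher in cauda were Cotl1, Coro1c, Lgals1, Snx9 and St3gal5, and 3 of them encode proteins that act on actin or on membrane shape. Cotl1 (ENSMUSG00000031827), coactosin-like protein, binds filamentous actin. It stood at 784, 414 and 348 CPM in caput/corpus and at 1474, 1191, 678 and 860 CPM in cauda. The Maj3 libraries (caput/corpus replicate 1, cauda replicates 1 and 2) were the high ones in each region, so that the groups overlapped while each region difference within a title series did not. With the title series in the model the log2 fold change was 0.91 ± 0.13 (adjusted p = 0.012).

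Coro1c (ENSMUSG00000004530), a coronin of the actin cortex, stood at 149, 141 and 169 CPM in caput/corpus and at 238, 245, 231 and 236 CPM in cauda (log2 fold change 0.65 ± 0.11; adjusted p = 0.0304). All 4 cauda libraries lay within a narrow band above all 3 caput/corpus libraries. Of the 7 coronin genes, a family looked up after the values were seen, Coro1c alone was called, against 0.615% of all genes tested. Snx9, a sorting nexin that couples membrane curvature to actin assembly during endocytosis, stood at 90.1, 81.0 and 69.0 CPM in caput/corpus and at 123, 140, 111 and 112 CPM in cauda (0.56 ± 0.10; adjusted p = 0.0398).

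Lgals1 (ENSMUSG00000068220), galectin-1, is a secreted lectin that binds galactose-containing glycans and dampens T cell responses. It stood at 176, 166 and 152 CPM in caput/corpus and at 236, 274, 247 and 241 CPM in cauda (log2 fold change 0.57 ± 0.10; adjusted p = 0.0386). St3gal5 (ENSMUSG00000056091), the sialyltransferase that makes the ganglioside GM3, stood at 107, 116 and 111 CPM in caput/corpus and at 205, 217, 156 and 169 CPM in cauda (0.70 ± 0.13; adjusted p = 0.042). For both genes every cauda library lay above every caput/corpus library. The IS libraries lay lower still, at 82.3 ± 10.9 CPM for Lgals1 and 39.5 ± 5.11 CPM for St3gal5 (SD, n = 4). Of the 5 higher genes, 4 had an IS mean below that of caput/corpus, Cotl1 being the other.

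These 5 calls were close to the threshold, and all 5 were lost without the title series in the model. The adjusted p values were then 0.428 (Cotl1), 0.0847 (Coro1c), 0.132 (Lgals1), 0.199 (Snx9) and 0.096 (St3gal5), with log2 fold changes of 0.60 to 1.03. With DESeq2's size factors in edgeR, St3gal5 had an adjusted p of 0.0514. All 5 were kept without cauda replicate 1, with adjusted p values of 0.0127 (Cotl1), 0.0279 (Coro1c), 0.0139 (Lgals1), 0.0237 (Snx9) and 0.037 (St3gal5). Cotl1 lost its call without caput/corpus replicate 1 or 3 (highest adjusted p 0.0822). Coro1c, Lgals1, Snx9 and St3gal5 lost theirs without any 1 of the 6 libraries other than cauda replicate 1, with highest adjusted p values of 0.21, 0.259, 0.256 and 0.299, while their log2 fold changes stayed between 0.50 and 0.76.

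**Figure D2:**
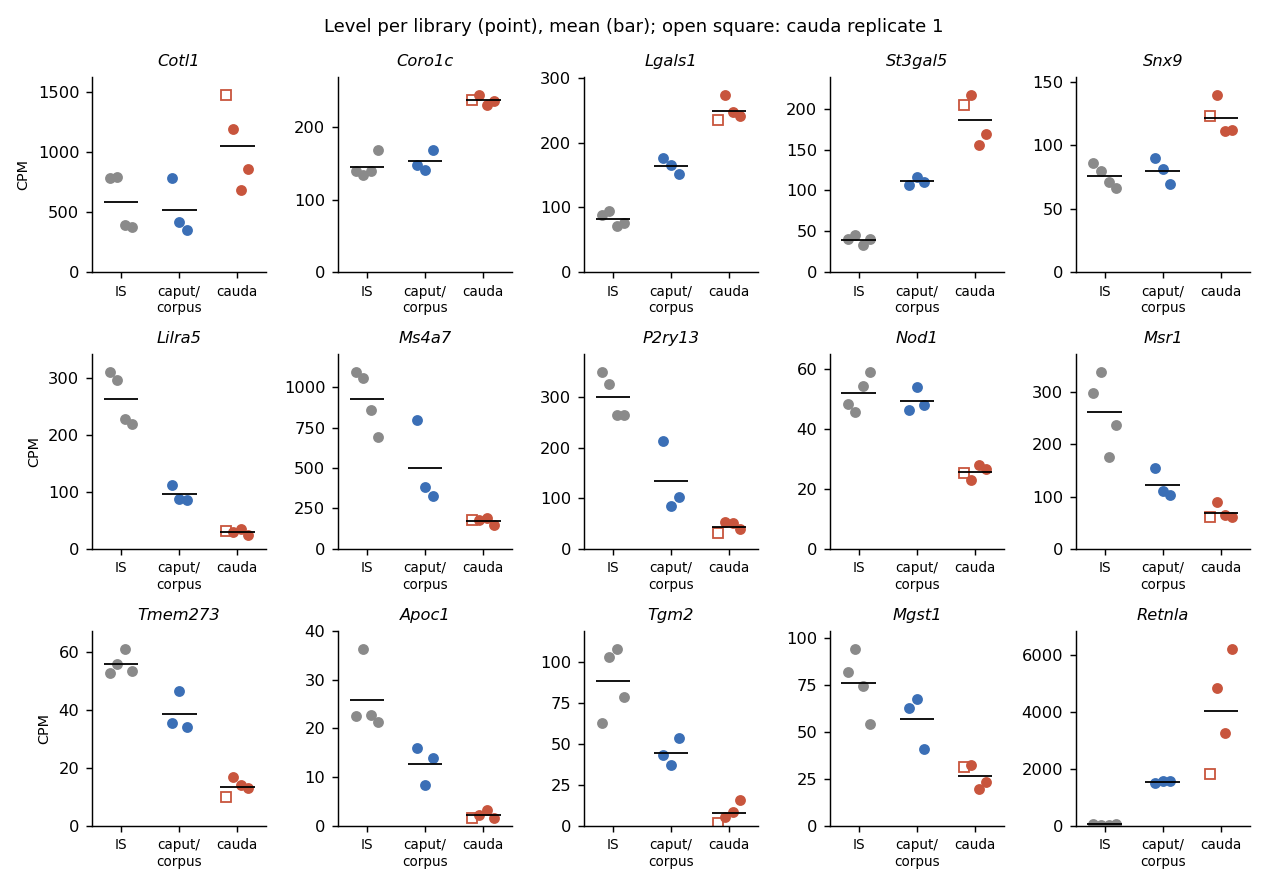
Level in CPM of 15 genes in each IS (4), caput/corpus (3) and cauda (4) library (points), with the mean as a bar and cauda replicate 1 as an open square. Coro1c, Lgals1, St3gal5 and Snx9 show all cauda points above the caput/corpus points, Lilra5, Ms4a7 and Nod1 show them all below, and Retnla shows cauda points from 1828 to 6213 above caput/corpus points near 1546.

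The list of actin, adhesion and migration genes, 18 genes that were all tested, held 2 higher calls (Cotl1 and Lgals1) and 0 lower ones. Of all genes tested, 0.0331% were called higher and 0.582% lower. The list's median log2 fold change was 0.59 against -0.02 over all genes tested. In 11 of its 18 members every cauda library lay above every caput/corpus library, against 3.05% of all genes tested. The list was written with earlier results of these data known, so its shift is a description and no separate support for the calls. Vim, the intermediate filament protein vimentin, stood at 401, 680 and 522 CPM in caput/corpus and at 793, 898, 886 and 909 CPM in cauda, which did not pass the test (0.75 ± 0.17; adjusted p = 0.1). The annexins Anxa1 and Anxa2, which bind membranes in the presence of calcium, had log2 fold changes of 0.63 ± 0.21 and 0.67 ± 0.22 (adjusted p = 0.254 and 0.257). Crip1, a LIM domain protein, stood at 667, 789 and 641 CPM in caput/corpus and at 1183, 1321, 951 and 1217 CPM in cauda. Its adjusted p was 0.0561 with all libraries and 0.041 without cauda replicate 1.

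Without cauda replicate 1, 18 further genes were higher in cauda. In 16 of the 23 genes then called higher, the omitted library also lay above every caput/corpus library, and in 5 it lay below them all. Alox5, the lipoxygenase that starts leukotriene synthesis, stood at 106, 57.9 and 70.2 CPM in caput/corpus and at 114, 179, 131 and 122 CPM in cauda (0.91 ± 0.13 without the library, adjusted p = 0.0103; adjusted p = 0.146 with it). The nuclear long noncoding RNA Neat1 stood at 506, 895 and 878 CPM in caput/corpus and at 1476, 1048, 1452 and 1400 CPM in cauda (adjusted p = 0.0141 without it and 0.0524 with it). St6galnac6, a second sialyltransferase of ganglioside synthesis, stood at 39.9, 39.1 and 40.3 CPM in caput/corpus and at 54.8, 59.6, 60.3 and 66.0 CPM in cauda (adjusted p = 0.026 and 0.0653).

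A few of these genes were low in cauda replicate 1 and high in the other 3 cauda libraries. Lyve1, the hyaluronan receptor of perivascular macrophages and lymphatic endothelium, stood at 17.0, 19.9 and 7.37 CPM in caput/corpus, at 2.56 CPM in cauda replicate 1 and at 73.5, 56.9 and 53.7 CPM in the others. Its log2 fold change was 2.05 ± 0.40 without cauda replicate 1 (adjusted p = 0.0372) and 1.65 ± 0.86 with it (adjusted p = 0.506). Ncaph, a condensin subunit, stood at 0.497 CPM in cauda replicate 1 and at 20.1 to 22.0 CPM in the others, against 5.67 to 12.8 CPM in caput/corpus. Its adjusted p was 0.0215 without that library and 0.733 with it.

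**Figure D3:**
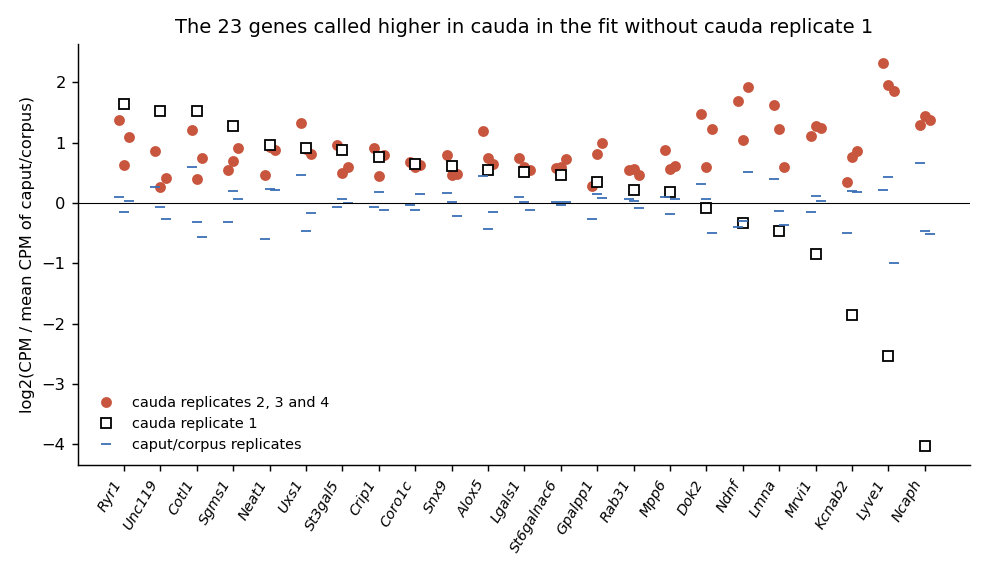
For the 23 genes higher in cauda when cauda replicate 1 is left out, the log2 ratio of each library's CPM to the caput/corpus mean: dots for cauda replicates 2 to 4, open squares for cauda replicate 1, dashes for caput/corpus. The square lies with the dots for most genes and below all dashes for 5, down to -4.03 for Ncaph.

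Among the lower genes with a mean of at least 10 CPM in cauda, a set picked out after the values were seen, several encode receptors and membrane proteins of myeloid cells. Lilra5 (ENSMUSG00000070873), an immunoglobulin-like receptor of myeloid cells, stood at 113, 87.3 and 86.4 CPM in caput/corpus and at 30.8, 30.2, 34.6 and 25.0 CPM in cauda. Every cauda library was well below every caput/corpus library (log2 fold change -1.70 ± 0.13; adjusted p = 0.000259), and the IS libraries stood highest, at 264 ± 46.6 CPM (SD, n = 4). The Lilra5 call was kept without any 1 library (highest adjusted p 0.00425). Ms4a7, a membrane-spanning protein of macrophages, stood at 797, 383 and 324 CPM in caput/corpus and at 176, 180, 192 and 147 CPM in cauda (-1.52 ± 0.21; adjusted p = 0.00973), and its call too was kept without any 1 library. It was the 1 called gene among 11 tested Ms4a genes, a family looked up after the values were seen. Calls made up 0.615% of all genes tested.

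Nod1, the cytosolic sensor of bacterial peptidoglycan, stood at 46.3, 54.2 and 48.0 CPM in caput/corpus and at 25.3, 22.9, 27.9 and 26.8 CPM in cauda (-0.91 ± 0.12; adjusted p = 0.00842). The C-type lectin Clec4n (dectin-2), which binds fungal mannans, was also lower, at 106, 93.4 and 48.0 CPM against 39.6, 51.1, 32.7 and 31.9 CPM (-1.17 ± 0.20; adjusted p = 0.0324), but its groups overlapped. They were the 2 called members of 18 pattern recognition receptors, whose median was -0.25, and 0.615% of all genes tested were called. The Toll-like receptor Tlr2 stood at 455, 303 and 349 CPM in caput/corpus and at 366, 333, 332 and 321 CPM in cauda (adjusted p = 0.659). Nod1 lost its call without caput/corpus replicate 1 (adjusted p = 0.0918), and Clec4n without any of 5 libraries, caput/corpus replicates 1 and 2 and cauda replicates 2, 3 and 4 (highest adjusted p 0.226).

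Genes of uptake and lipid handling gave 3 more lower calls. Msr1, the class A scavenger receptor, stood at 155, 111 and 102 CPM in caput/corpus and at 60.1, 90.2, 64.6 and 61.5 CPM in cauda (-0.89 ± 0.16; adjusted p = 0.0439). Tgm2, a transglutaminase that takes part in the clearance of dying cells, stood at 43.1, 37.2 and 53.9 CPM in caput/corpus and at 1.88, 5.18, 8.22 and 15.8 CPM in cauda (-2.59 ± 0.47; adjusted p = 0.0398). Both are in the list of complement and apoptotic cell uptake, in which 2 of 19 tested genes were lower and 0 higher. Of all genes tested, 0.582% were called lower and 0.0331% higher. Apoc1, a small apolipoprotein, was the 1 called gene of 18 in the lipid and cholesterol list, at 16.0, 8.30 and 13.9 CPM against 1.63, 2.20, 3.30 and 1.58 CPM (-2.56 ± 0.37; adjusted p = 0.0123). Each of the 3 had non-overlapping groups, and the cauda libraries lay wholly below caput/corpus in 6.59% of all genes tested.

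Those calls also rested on few libraries. Msr1 lost its call without any 1 of the 6 libraries other than cauda replicate 1 (highest adjusted p 0.279). Tgm2 was called only with all libraries and without cauda replicate 1 or 4 (highest adjusted p 0.259 among the rest). Apoc1 lost its call without cauda replicate 4 or caput/corpus replicate 1 or 3 (highest adjusted p 0.12).

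Of the microglia-type homeostatic genes, which mark resident macrophages of the brain and some other tissues, 2 of 14 were lower in cauda and 0 higher. Among all genes tested, 0.582% were called lower and 0.0331% higher. This list, too, was written with earlier results of these data known. P2ry13, a purine receptor, stood at 212, 84.5 and 103 CPM in caput/corpus and at 31.1, 53.8, 51.5 and 39.4 CPM in cauda (-1.58 ± 0.26; adjusted p = 0.028). Sall1, a zinc finger transcription factor, stood at 6.38, 4.12 and 1.75 CPM in caput/corpus, with 296 reads over the 3 libraries, against 2 reads over the 4 cauda libraries. The ratio of Sall1 reads, scaled to library size, was 211 with an exact 95% interval of 57.8 to 1749 (adjusted p = 0.0169). That interval, taken on summed reads, covers counting error only and not the spread between libraries. Sall1 is expressed by some epithelia as well as by microglia.

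Caput/corpus replicate 1 carried the highest level of several genes of this list. Tmem119, a membrane protein of microglia, stood at 381 CPM there and at 57.4 and 76.8 CPM in the other caput/corpus libraries, against 45.3, 55.0, 69.6 and 42.3 CPM in cauda and 433 ± 112 CPM in IS (SD, n = 4). The purine receptor P2ry12 stood at 328 CPM in that library, at 91.0 and 90.6 CPM in the other 2 and at 37.8, 104, 110 and 57.3 CPM in cauda. Neither was called (adjusted p = 0.247 and 0.401). Without caput/corpus replicate 1, P2ry13 was not called either, nor without caput/corpus replicate 3 or cauda replicate 2 or 4 (highest adjusted p 0.177). Sall1 lost its call without cauda replicate 2, 3 or 4 (highest adjusted p 0.0723). Without cauda replicate 1, Fcrls and Sparc were also lower (adjusted p = 0.0238 and 0.0131).

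Other called genes of moderate level were lower by log2 fold changes between -1.75 and -0.64. Tmem273 stood at 35.7, 46.5 and 34.2 CPM in caput/corpus and at 10.0, 17.0, 14.2 and 13.1 CPM in cauda (-1.50 ± 0.20; adjusted p = 0.0082). Mgst1, a membrane glutathione transferase, had a log2 fold change of -1.20 ± 0.19 (adjusted p = 0.0261) and Maged1, a MAGE family protein, one of -1.75 ± 0.24 (adjusted p = 0.00983). Mylip, a ubiquitin ligase that removes the LDL receptor, stood at 124, 116 and 113 CPM in caput/corpus and at 47.6, 50.3, 77.8 and 72.9 CPM in cauda. Icam1, an adhesion molecule for leukocyte integrins, was lower by the smallest amount of the 19, -0.64 ± 0.11 (adjusted p = 0.0382), with overlapping groups. Tmem273 and Maged1 lost their calls without caput/corpus replicate 1 (adjusted p = 0.0619 and 0.112), and Mgst1, Mylip and Icam1 each without at least 4 of the 7 libraries in turn (highest adjusted p 0.112, 0.241 and 0.308).

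The genes that separate phagocyte classes were mostly not called. In each of the lists of macrophage identity (18 genes), perivascular resident-type macrophage (16), monocyte (15 tested of 16), conventional dendritic cell (20), MHC class II presentation (18), alternative and regulatory activation (18), inflammatory cytokines and chemokines (20 tested of 21), interferon-stimulated genes (18), lysosome and cathepsins (20), immediate early and dissociation stress (20) and cell cycle (16), 0 genes were called by edgeR. Of their 199 genes, 42 had an unadjusted p under 0.05, and DESeq2 called 17, voom 24 and limma on log2(RPKM + 1) 0. Over all 15116 genes tested, 1772 had such a p, and DESeq2 called 632, voom 668 and limma 143. The shares over all genes were thus smaller than in these lists, except with limma. Their medians ran from -0.46 for inflammatory cytokines and chemokines to 0.36 for the cell cycle. Without cauda replicate 1, Lyve1 was higher, and Igf1 and the costimulatory molecule Cd86 were lower (adjusted p = 0.013 and 0.0211), with 0 calls in the other 9 of these lists.

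**Figure D4:**
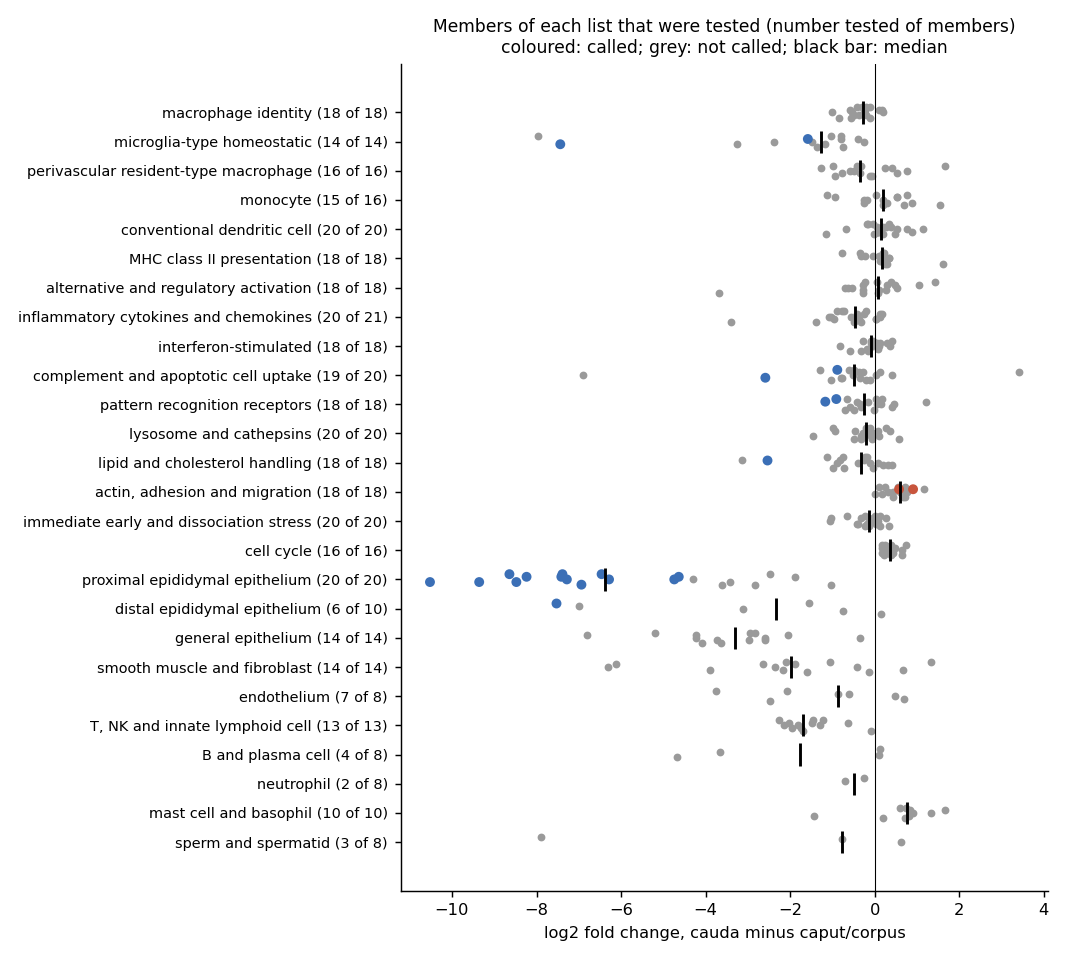
Log2 fold change (cauda minus caput/corpus) of each tested member of 26 gene lists, grey where not called and coloured where called, with the list's median as a black bar. The actin, adhesion and migration list lies right of 0 (median 0.59), and the epithelial lists lie far to the left (median -6.37 for the proximal epididymal epithelium).

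Ccr2, the chemokine receptor of monocytes, stood at 1398, 1848 and 2053 CPM in caput/corpus and at 1846, 2600, 2212 and 3141 CPM in cauda (0.53 ± 0.30; adjusted p = 0.541). The calcium-binding protein S100a4 stood at 95.9, 183 and 148 CPM against 256, 213, 220 and 272 CPM (0.88 ± 0.23; adjusted p = 0.144), with no overlap. Retnla, a secreted product of alternatively activated macrophages, stood at 1502, 1559 and 1578 CPM in caput/corpus and at 1828, 4839, 3264 and 6213 CPM in cauda. All cauda libraries were above the tight caput/corpus group, but they differed among themselves by more than 3-fold, and the gene did not pass the test (1.43 ± 0.56; adjusted p = 0.338). Ctsd, the lysosomal protease cathepsin D, stood at 3139, 1129 and 996 CPM in caput/corpus and at 523, 716, 574 and 643 CPM in cauda (-1.46 ± 0.29; adjusted p = 0.0634).

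Products of the epididymal epithelium were among the lower genes with almost no reads in cauda. Of the 60 lower genes with a mean under 1 CPM in cauda, 13 were in the lists of epithelial markers and 47 in none of them. The lists are short, and the 47 include Defb20, Defb42 and Lcn10 of the secretory families below. The split thus does not sort the genes by cell type. All 60 genes together made up 1009, 652 and 715 CPM in caput/corpus and 3.86 to 4.75 CPM in the 4 cauda libraries. In bulk RNA, fewer cells of a type and less RNA per cell cannot be told apart. Gpx5 (ENSMUSG00000004344), a secreted glutathione peroxidase of the caput epithelium, stood at 326, 144 and 150 CPM in caput/corpus and at 0.355, 1.01, 0.637 and 0.483 CPM in cauda. That is a log2 fold change of -8.48 ± 0.33 (adjusted p = 2.19e-06), and IS stood at 796 ± 293 CPM (SD, n = 4).

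Lcn5 (ENSMUSG00000026937), the retinoic acid-binding lipocalin of the epididymis, stood at 52.2, 101 and 46.6 CPM in caput/corpus and at 0, 0.0338, 0.0579 and 0.0879 CPM in cauda (-10.52 ± 0.66; adjusted p = 5.54e-05). Unlike Gpx5, it was low in IS as well, at 1.32 ± 0.50 CPM. Spink11, a Kazal-type protease inhibitor, had the same order, at 25.1, 49.6 and 22.8 CPM in caput/corpus, 4 reads over all cauda libraries and 0.186 ± 0.196 CPM in IS. Rnase10, a secreted member of the RNase A family, followed the order of Gpx5, at 17.6, 6.31 and 10.0 CPM in caput/corpus, 0.0439 to 0.116 CPM in cauda and 230 ± 81.3 CPM in IS. Among the 88 lower genes, the IS mean was above the caput/corpus mean in 70 and below it in 18.

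The secretory families were counted after the values were seen. Over all genes tested, 0.582% were called lower in cauda. Members with 0 reads in cauda passed the filter only through caput/corpus or IS, so they could not come out higher in cauda. The table holds 42 beta-defensin genes, of which 24 were tested and 12 were lower in cauda. Of the 42, 23 had 0 reads in all cauda libraries, 10 of them also in caput/corpus. Defb20 stood at 89.1, 19.9 and 28.8 CPM in caput/corpus and at 0.0439 to 0.177 CPM in cauda (-8.63 ± 0.46; adjusted p = 1.45e-05). Of 7 tested lipocalins 6 were lower, among them Lcn9 at 34.7, 2.09 and 19.4 CPM against 0 to 0.237 CPM. Of 11 tested cystatins 3 were lower, the epididymal Cst8, Cst11 and Cst12, while the family's median was -0.10. For Cst11, 980 reads in caput/corpus stood against 3 in cauda, a scaled ratio of 465 (exact 95% interval 159 to 2260, for counting error only).

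Of the 88 lower genes, 20 had 0 reads in all 4 cauda libraries and 22 had 1 to 3. Against a floor of 3 reads over the cauda group, the former were at least 27.1-fold (Lingo1) to 627-fold (Epp13) lower, with Defb47 at least 386-fold lower; these 3 are named after their values were seen. Intervals and floors cover counting error only. Other lower genes were still present in cauda. Spink8 stood at 69.3, 54.6 and 45.1 CPM in caput/corpus and at 3.48, 8.43, 10.4 and 6.37 CPM in cauda (-2.98 ± 0.43; adjusted p = 0.0138). The retinaldehyde dehydrogenase Aldh1a1 stood at 40.1, 41.1 and 88.3 CPM against 9.23, 4.50, 10.4 and 3.60 CPM (-3.05 ± 0.54; adjusted p = 0.0386). Leaving out cauda replicate 2 or 4 or caput/corpus replicate 1 ended the call of Spink8 (highest adjusted p 0.12), and these or caput/corpus replicate 2 or 3 ended that of Aldh1a1 (highest adjusted p 0.121).

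Calls of the leading secretory genes were kept without any 1 library for Gpx5, Rnase10, Defb20, Lcn5, Cst11, Lcn9 and Lcn2, with highest adjusted p values from 7.67e-05 for Gpx5 to 0.0431 for Lcn9. Spink11 lost its call without caput/corpus replicate 1 (adjusted p = 0.0501). Adam7, a sperm-surface protein secreted by the epididymis, stood at 48.3, 41.4 and 43.2 CPM in caput/corpus and at 0, 3.59, 0.695 and 2.86 CPM in cauda. It was called with all libraries (adjusted p = 0.0336) and without cauda replicate 1 or 2, and not without the other 5 in turn (highest adjusted p 0.191).

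**Figure D5:**
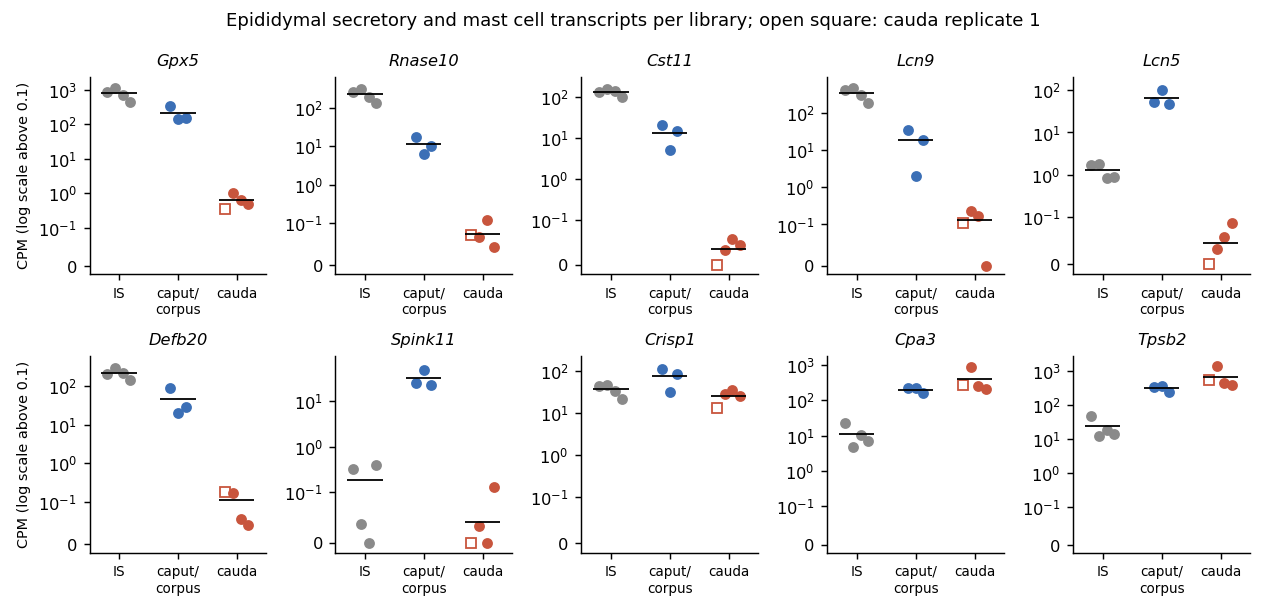
Level in CPM, on a log scale above 0.1 and linear below, of 8 epididymal secretory genes and 2 mast cell proteases in each IS (4), caput/corpus (3) and cauda (4) library, with the mean as a bar and cauda replicate 1 as an open square. Gpx5, Rnase10, Cst11, Lcn9 and Defb20 run from high in IS to near 0 in cauda, Lcn5 and Spink11 are highest in caput/corpus, and Cpa3 and Tpsb2 are lowest in IS.

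Markers of other cell types were summed in each library, since a sort can hold other cells or their RNA. The proximal epididymal epithelium list (20 genes) had 13 lower and 0 higher genes, where 0.582% of all genes tested were called lower. Its sum was 544 to 824 CPM in caput/corpus, 27.4 to 68.9 CPM in cauda and 1825 to 4236 CPM in IS. One of its genes, Mfge8, is also in the uptake list. General epithelial markers (14 genes, 0 called) summed to 66.0 to 191 CPM in caput/corpus and 3.55 to 15.2 CPM in cauda. Without cauda replicate 1, the keratins Krt8 and Krt18 were lower (adjusted p = 0.0131 and 0.014). Of the distal epididymal epithelium list, 6 of 10 genes were tested. Its sum was 84.4 to 177 CPM in caput/corpus and 13.2 to 50.4 CPM in cauda. Its called gene, Lcn6, was lower in cauda, and every IS library lay above every caput/corpus library for this gene. The proximal and distal sums include called genes, so their fall in cauda restates those calls in part. The part of epithelial cells or their RNA in the calls of phagocyte genes was not tested.

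Of the other lists, T, NK and innate lymphoid cell markers (13 genes, 0 called) summed to 128 to 196 CPM in caput/corpus and 66.3 to 111 CPM in cauda, with no overlap. Smooth muscle and fibroblast markers (14 genes, 0 called) summed to 64.4 to 431 CPM in caput/corpus and 30.4 to 96.0 CPM in cauda. Endothelial markers (7 tested of 8), B and plasma cell markers (4 of 8), neutrophil markers (2 of 8) and sperm markers (3 of 8) also held 0 calls; the neutrophil markers S100a9 and Ly6g had 0 reads in both regions. Sperm markers summed to 3.64 to 11.3 CPM in caput/corpus and 2.66 to 6.53 CPM in cauda, where sperm are stored. Of the 67 genes tested in the 8 lists of other cell types with 0 calls by edgeR, 21 had an unadjusted p under 0.05. Among these 67, DESeq2 called 15, voom 14 and limma on log2(RPKM + 1) 4. The shares over all 15116 genes tested were smaller, with 1772 at such a p and 632, 668 and 143 called.

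Mast cell and basophil markers (10 genes, 0 called) were present in both regions, at a sum of 798 to 1151 CPM in caput/corpus and 1127 to 4249 CPM in cauda, against 33.0 to 119 CPM in IS. The protease Cpa3 stood at 222, 220 and 166 CPM in caput/corpus and at 280, 913, 252 and 212 CPM in cauda. Its groups overlapped, and cauda replicate 2 alone was high (0.74 ± 0.52; adjusted p = 0.652). The tryptase Tpsb2 stood at 355, 374 and 239 CPM in caput/corpus and at 551, 1399, 436 and 382 CPM in cauda (0.81 ± 0.47; adjusted p = 0.56). The mast cell sum lay in the same direction as the 5 higher genes, and its part in those calls was not tested.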

How the data were processed

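RNA was measured in EGFP+ cells sorted from epididymis; per the labels' protocols, a PicoRNA kit was used for the RNA and a SMARTer v4 kit for libraries read on a HiSeq2500. The submitters' processing notes name STAR, HTSeq, edgeR and the build mm9, with no versions or settings. The deposited count files hold whole read counts per gene, not stranded per their names, and the deposited table holds RPKM made by the authors with a gene length per gene. RPKM times length was a whole multiple of 1 step per column (tolerance 0.001) for all 37583 genes in all 11 columns, so 100.0% of values gave whole reads, and these reads were tested. They equal the count file of the same sample in 8 libraries and differ in 3. HTSeq's summary lines in the deposited count files, left out here, hold 12.5% to 35.8% of reads without a unique alignment, 7.75% to 24.8% outside genes and 1.74% to 2.12% shared between genes. Reads without a unique alignment made up 27.6% to 35.8% in files under Maj3 titles and 12.5% to 14.7% under Maj4. The 35.8% and the 1.74% belong to the file under IS replicate 2, whose reads are in no column. The reads used as cauda replicate 1 have no count file, and so no such lines. Paralogs may share reads, and overlapping antisense genes cannot be told apart.

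The test was edgeR 4.0.16 (R 4.3.3; quasi-likelihood, TMM, filterByExpr by region) in 1 fit of 11 libraries with the title series (Maj3, Maj4) as covariate and the contrast cauda minus caput/corpus; called means a Benjamini-Hochberg adjusted p under 0.05. The SE comes from the F statistic. Alternatives were limma 3.58.1 on log2(RPKM + 1), voom, DESeq2 1.42.0, other filters, scalings and library sets. The script was tested on simulated data. Named genes were the 15 with the smallest p and the 10 with the largest change at 20 CPM or more in each direction, the 10 with the smallest p in each direction without cauda replicate 1, called list members, up to 4 others per list, and Cx3cr1; other genes with values, lower genes at 10 CPM or more in cauda and uncalled list members among them, were chosen after seeing values. Members and the 27 lists (413 genes, 400 found) were chosen with earlier results of these data known; the 13 mitochondrially encoded genes were not analysed here. Symbols are from GENCODE M21, which holds 32860 of the 37583 identifiers. No gene coordinates are given, since the build differs, except RefSeq promoter windows. The replicates are numbered in accession order.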

Additional observations from a re-analysis of the deposited data

Results flagged for a closer look

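Of 106 named genes examined, 95 had more than 3 reads over the cauda libraries, and in 11 genes a single cauda library lay far from the other 3, judged by the gap to its nearest neighbour as a share of the range (above Dixon's 95% critical value for 4 libraries). That critical value is for independent, normally spread values. Some of the genes were named because of the fit without cauda replicate 1, so the 11 cannot be set against a chance rate.

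Cauda replicate 1 was the separate library in 4 of them. It was the lowest for Ncaph (0.91; 0.497 CPM against 20.1 to 22.0 in the others) and for Mrvi1 (0.861; 13.3 CPM against 51.6 to 57.7). It was the highest for the sperm-binding protein Spag11b (0.99; 2.45 CPM against 0.0338 to 0.0579) and for Dpp4, a surface peptidase of dendritic cells (0.955; 389 CPM against 255 to 261).

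Cauda replicate 2 was the highest for the mast cell proteases Cpa3 (0.904; 913 CPM against 213 to 280), Cma1 (0.894; 1102 CPM against 263 to 352), Mcpt4 (0.831; 406 CPM against 102 to 153) and Tpsb2 (0.834; 1399 CPM against 382 to 551). It was also the highest for Msr1 (0.852; 90.2 CPM against 60.1 to 64.6) and for the fibroblast receptor Pdgfra (0.892; 0.406 CPM against 0 to 0.0439). Cauda replicate 3 alone held reads of the secreted RNase Rnase9 (1.0; 0.927 CPM against 0).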

How the results depend on the processing

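Against 93 calls (5 higher in cauda, 88 lower), other settings gave 632 with DESeq2 (118 higher, 514 lower), 668 with voom and quality weights (225 and 443), 143 with limma on log2(RPKM + 1) (16 and 127), 184 without a filter on low counts (11 and 173), 52 with the 8 libraries on which file and column match (2 and 50), 28 within Maj4, 5 within Maj3 (where caput/corpus has 1 library and no replicate, so that the spread comes from the IS and cauda libraries), 8 with only the cauda and caput/corpus libraries and 0 with the counts as filed; in the last 4, 0 genes were higher. All 93 genes were called by DESeq2 and 87 by voom. The total stayed within 1.5 times with DESeq2's size factors in edgeR (94; 4 higher, St3gal5 losing its call at an adjusted p of 0.0514), robust estimation (90; 5 higher) and no title series (83; 0 higher). Leaving out 1 library gave 29 to 205. With a replicate block 41 genes were called, all lower. The deviations of libraries that share a title series and label number were correlated at 0.284, -0.237 and -0.104. These deviations come from few libraries per region and title series, so they cannot tell whether the numbers pair the samples. Added after seeing the data, without cauda replicate 1, DESeq2 called 927 (237 higher, 690 lower), a replicate block 148 and the 2 regions alone 101. Ncaph turned to -0.38 within Maj3, where cauda replicate 1 is 1 of 2 cauda libraries; no other of the 106 genes examined changed sign. Where no cause is given, the cause was not tested. Of the 53 called genes named here, 53 stayed called with DESeq2 and 20 without caput/corpus replicate 1. Depth limits genes with few reads: a library of 16873180 reads gives 0.0577 CPM per read.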
